A study of Mus musculus with 6 samples.

Results

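The GABA-A receptor subunit genes Gabra2, Gabra3, Gabra4, Gabra5, Gabrb1, Gabrb2 and Gabrd were followed in mouse hippocampus with and without the channel gene Trpc4. They were listed by name, with no threshold on a measured value, though earlier results of these data were known when they were listed. Each was represented by the probe set that names only that gene and has the highest mean over the arrays. All 7 were measured, among 22180 genes tested. The samples were 3 wild-type hippocampi and 3 hippocampi labelled Trpc4 knock out, all from male mice of strain background C57BL/6J at postnatal day 56, with 1 Affymetrix array a sample. The product of Trpc4 is a cation channel opened downstream of receptors. The labels give neither the part of Trpc4 that was deleted nor whether each replicate is a separate animal, so the spread between replicates may be technical in part. Values are log2 RMA signals, on which a difference of 1 is a doubling, and all differences are knockout minus wild type. In whole tissue, fewer cells of a type and less RNA per cell cannot be told apart.

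GABA-A receptors are the chloride channels through which the transmitter GABA inhibits neurons. Each receptor is a ring of subunits, usually alpha and beta subunits joined by a gamma or a delta subunit, and the alpha subunit largely sets its place on the cell and its drug sensitivity. In hippocampus, receptors with alpha2 are known for fast synaptic inhibition of pyramidal cells, those with alpha5 for slow and tonic inhibition in CA1 and CA3, and those with alpha4 and delta for tonic inhibition of dentate granule cells. Among inbred mouse strains, C57BL/6J is known to carry a small intronic deletion in Gabra2 that lowers its brain expression. Whether these samples differ among themselves at that site was not tested.

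Promoter windows are shown because the values below turn on Gabra2, whose signal varied widely, and on its neighbours Gabra4 and Gabrb1, whose signals did not. The genes Gabrg1, Gabra2, Gabra4 and Gabrb1 lie in a cluster on chromosome 5. Each window runs from 250 bases before to 50 bases after a RefSeq start on build GRCm38.p6, at chr5:71095800-71096099 (minus strand) for Gabra2, chr5:71658259-71658558 (minus strand) for Gabra4 and chr5:71657671-71657970 (plus strand) for the first of the 2 Gabrb1 starts. Capitals mark the motifs found. The motifs searched, on both strands, were the TATA box (TATAAA), the CCAAT box, the GC box (GGGCGG), the cyclic AMP response element (TGACGTCA) and an EGR factor site (GCGGGGGCG), and the matches marked do not overlap.
Gabra2: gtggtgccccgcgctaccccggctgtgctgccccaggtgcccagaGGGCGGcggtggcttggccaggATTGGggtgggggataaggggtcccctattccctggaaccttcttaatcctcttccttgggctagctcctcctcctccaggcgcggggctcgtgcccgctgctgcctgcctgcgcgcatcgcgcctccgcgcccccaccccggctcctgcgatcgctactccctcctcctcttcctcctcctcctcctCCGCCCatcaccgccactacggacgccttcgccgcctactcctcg
Gabra4: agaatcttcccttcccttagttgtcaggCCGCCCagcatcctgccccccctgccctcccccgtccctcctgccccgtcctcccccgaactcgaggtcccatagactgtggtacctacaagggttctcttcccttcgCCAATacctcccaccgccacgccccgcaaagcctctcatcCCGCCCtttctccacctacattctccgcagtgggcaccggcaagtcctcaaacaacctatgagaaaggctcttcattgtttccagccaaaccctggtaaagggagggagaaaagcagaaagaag
Gabrb1: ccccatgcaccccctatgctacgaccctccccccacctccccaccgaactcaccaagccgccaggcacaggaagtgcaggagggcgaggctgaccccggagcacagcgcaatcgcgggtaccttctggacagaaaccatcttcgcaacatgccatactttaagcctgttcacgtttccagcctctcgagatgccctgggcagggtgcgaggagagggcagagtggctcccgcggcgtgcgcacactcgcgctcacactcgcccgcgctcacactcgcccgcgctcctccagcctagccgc
The Gabra2 window held 2 GC boxes and 1 CCAAT box and was 70.0% G and C, more than in 90.4% of all 32851 windows. The Gabra4 window also held 2 GC boxes and 1 CCAAT box, at 58.7% G and C, and the Gabrb1 window held none of the motifs, at 66.0%. Gabra4 and Gabrb1 are transcribed from opposite strands, and 288 bases separate their windows. Of all windows, 35.7% held the GC box, 37.4% the CCAAT box, 13.6% the TATA box, 1.79% the cyclic AMP response element and 2.91% the EGR site. These matches describe the letters only. Of the 7 genes, 6 had a window in the RefSeq table, all but Gabrd.

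The deleted gene was lower in every library labelled knockout. Trpc4 had signals of 8.06, 8.23 and 8.06 in wild-type replicates 1 to 3 and of 7.39, 7.55 and 7.31 in the knockout replicates. It differed by -0.70 ± 0.09 (standard error), at an unadjusted limma p of 8.87e-05. Its adjusted limma p over all genes was 0.738, so even the targeted gene did not pass the adjusted threshold. Of the markers of the labelled tissue, 11 of 12 dentate granule cell, 6 of 7 CA1 and all 8 CA3 markers lay above the overall median signal in every sample. That median was 4.74, over all probe sets and arrays. So did 7 of 9 thalamus, 4 of 7 striatum and 3 of 8 choroid plexus markers. This measure therefore does not tell hippocampus from other brain tissue. Oligodendrocyte and myelin markers were lower in knockout for 14 of 14 genes, with a median difference of -0.44, and 0 of them passed over all genes.

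None of the 7 subunit genes differed detectably between the genotypes. At an adjusted p of 0.05 limma called 0 of the 7, and 0% of all genes tested. At an unadjusted p under 0.05 it passed 0 of the 7, against 5.75% of all genes. The wild-type and knockout values overlapped for all 7 genes, while 10.9% of all genes had groups that did not overlap. Of the 7 genes, 5 had a higher mean in knockout and 2 a lower one. Their median difference was 0.04, beside 0.01 over all genes tested, 54.9% of which had a higher mean in knockout. Their median absolute difference was 0.04, against 0.08 over all genes. The 95% intervals of the 6 genes other than Gabra2 lay between -0.23 and 0.35, so a change larger than 1.27-fold lay outside each of them. For Gabra2 the interval was wider, from -0.77 to 0.81, or 58.8% to 175% of the wild-type level.

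**Figure D1:**
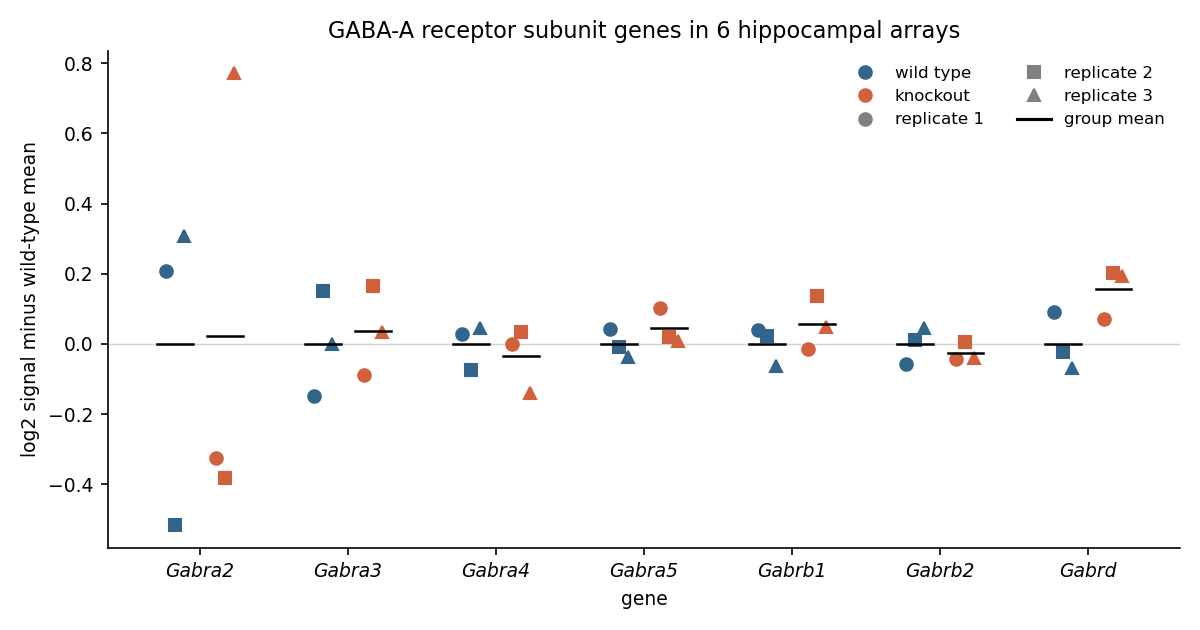
Log2 signal of each subunit gene in each sample, minus that gene's wild-type mean, with colours for genotype, marker shapes for replicate number and bars for group means. Gabra2 spreads over 1.29 log2 units in both genotypes together, while the other 6 genes stay within 0.31.

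**Figure D2:**
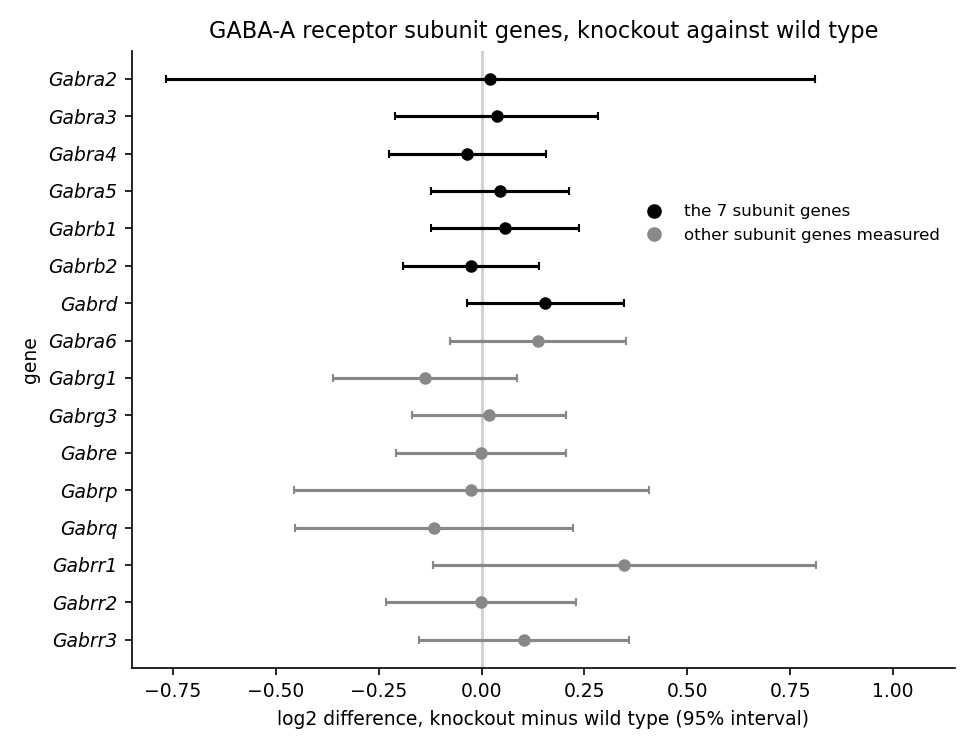
Log2 difference, knockout minus wild type, with its 95% interval from the limma fit for the 7 subunit genes (black) and the 9 other subunit genes measured (grey). Every interval includes 0, and that of Gabra2 is the widest among the 7.

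Gabra2, the alpha2 subunit gene, differed far more between samples than between genotypes. Its signal was 9.65, 8.93 and 9.75 in wild-type replicates 1 to 3, and 9.12, 9.06 and 10.21 in knockout replicates 1 to 3. Wild-type replicates 1 and 3 and knockout replicate 3 were thus high, the other 3 samples were low, and each genotype held both kinds. A gap of 0.53 separated the lowest of the high values from the highest of the low ones. The highest array had 2.44 times the signal of the lowest. The group means were nearly equal, 9.44 ± 0.45 for wild type against 9.46 ± 0.65 for knockout (SD, n = 3 each). They differed by 0.02, with 0.34 as the standard error (limma adjusted p 0.997; exact two-sided permutation p 1.0, where 3 against 3 samples cannot give less than 0.1). Its sign depended on single samples, at -0.35 without knockout replicate 3, -0.24 without wild-type replicate 2 and 0.22 without knockout replicate 2.

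The spread of Gabra2 was the widest of any gene at its signal level. Its pooled within-genotype SD was 0.56, the highest among the 610 genes whose mean signal lay within 0.5 log2 units of its own, and their median was 0.06. Over all 22180 genes it ranked number 34, and 0 of the 33 genes above it had as high a mean signal. The other 6 subunit genes had pooled SDs of 0.04 to 0.14. The highest of these, that of Gabra3, ranked number 146 of 1770 genes of like signal.

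**Figure D3:**
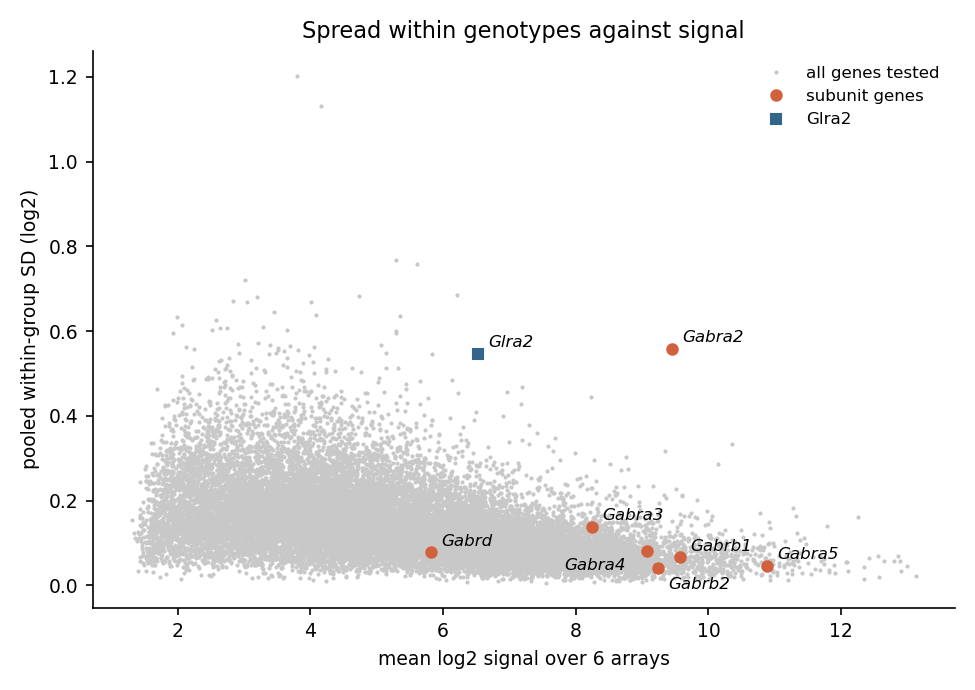
Pooled within-genotype SD of each gene tested (log2, vertical) against its mean log2 signal over the 6 arrays (horizontal), with the subunit genes and Glra2 marked. Gabra2 at 0.56 stands above all genes of its signal level, and the other subunit genes lie between 0.04 and 0.14.

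The wide spread of Gabra2 was not seen in the genes beside it. Gabrg1, a gamma subunit gene and its nearest measured neighbour on 1 side, had a pooled SD of 0.12, and Gabra4 and Gabrb1 on the other side had 0.08 and 0.07. Of the 10 measured genes on either side in RefSeq order, a set chosen after the Gabra2 values were seen, 9 of 20 lay above the overall median signal in every sample. Their pooled SDs ran from 0.04 to 0.27, the last being that of Corin, a protease gene. At an adjusted p of 0.05 limma called 0 of the 20, and 2 passed at an unadjusted p under 0.05, Gm5108 and Slc10a4l, both with signals below the overall median, where 5.75% of all genes passed.

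Glra2, which encodes the alpha2 subunit of the glycine receptor, another inhibitory chloride channel, was high and low in the same samples as Gabra2. Among the 83 genes compared with Gabra2 it had the most similar pattern over the 6 arrays by Pearson's r. This likeness did not pass adjustment over 560 relations (adjusted exact permutation p 0.826, and 0.760 on ranks). With 6 arrays the exact test has too few orderings for a relation to pass that adjustment by itself. The failure to pass therefore does not count against the likeness. Because the arrays fell into separate high and low clusters, no correlation is given. Its signals were 6.93, 6.03 and 6.99 in wild type and 5.93, 6.28 and 7.01 in knockout. Its pooled SD was 0.55, ranking number 2 of 3429 genes of like signal, and its genotype difference was -0.25 with an interval of -1.02 to 0.53. Glra2 lies on chromosome X and Gabra2 on chromosome 5. The mean deviation of the 14 myelin genes was 0.21, 0.16 and 0.24 in wild-type replicates 1 to 3 and -0.22, -0.46 and 0.08 in knockout replicates 1 to 3. Within knockout, replicate 3 was thus highest for this list as well as for Gabra2 and Glra2. That replicate was also the highest knockout for the CA1, astrocyte, thalamus, striatum, choroid plexus, endothelial and mural, and microglia marker lists. Wild-type replicate 2, low for Gabra2, was above knockout replicate 3 for the myelin genes. The endothelial and mural list ran 0.08, -0.01 and 0.09 in wild type and -0.09, -0.11 and 0.04 in knockout. This list was high and low in the same samples as Gabra2, as was the astrocyte list. The part of these lists in the Gabra2 and Glra2 patterns was not tested. The mean deviation of the 10 general neuron markers stayed between -0.04 and 0.06 in every sample.

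**Figure D4:**
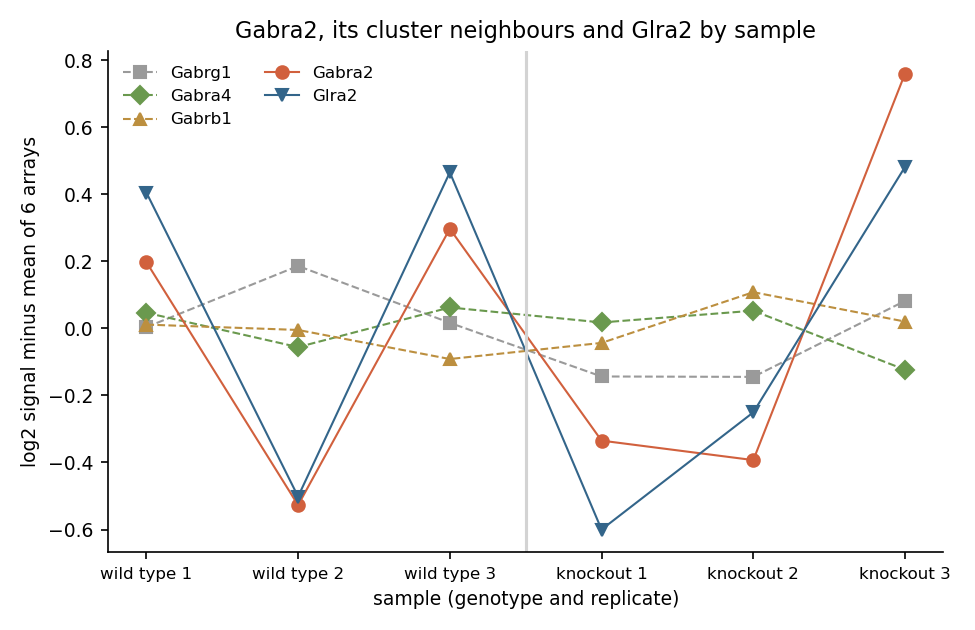
Log2 signal in each sample, minus the gene's mean over the 6 arrays, for Gabra2, its neighbours Gabrg1, Gabra4 and Gabrb1, and Glra2. Gabra2 and Glra2 are high in wild-type replicates 1 and 3 and knockout replicate 3, and Gabra4 and Gabrb1 stay near 0 in every sample.

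The other alpha subunit genes were close to equal in the genotypes. Gabra5, the alpha5 subunit gene of tonic inhibition in pyramidal cells, read 10.90, 10.85 and 10.82 in wild type and 10.96, 10.88 and 10.86 in knockout. Knockout replicate 1 was highest and wild-type replicate 3 lowest, and the other values were interleaved. Knockout stood at 103% of wild type, with a 95% interval of 91.8% to 116% (limma adjusted p 0.953). Gabra4, the alpha4 subunit gene that partners delta in granule cells and confers insensitivity to classical benzodiazepines, read 9.12, 9.02 and 9.14 in wild type and 9.10, 9.13 and 8.95 in knockout. Only knockout replicate 3 lay below the wild-type values. Knockout stood at 97.6% of wild type, with an interval of 85.5% to 111% (limma adjusted p 0.971). Gabra3, the alpha3 subunit gene, carried on chromosome X, read 8.08, 8.38 and 8.23 in wild type and 8.14, 8.39 and 8.26 in knockout. In both genotypes replicate 2 was highest and replicate 1 lowest, and the genotype means differed by 0.04 (interval -0.21 to 0.28, limma adjusted p 0.975).

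The beta subunit genes, whose products form the GABA binding site together with alpha subunits, also overlapped between genotypes. Gabrb1, the beta1 subunit gene, read 9.58, 9.57 and 9.48 in wild type and 9.53, 9.68 and 9.59 in knockout. Knockout replicate 2 was highest and wild-type replicate 3 lowest, and the means differed by 0.06, with 0.08 as the standard error (limma adjusted p 0.946). Gabrb2, the beta2 subunit gene, had the narrowest spread of the 7. It read 9.20, 9.27 and 9.30 in wild type and 9.21, 9.26 and 9.22 in knockout. All 3 knockout values lay inside the wild-type range, and knockout stood at 98.3% of wild type (interval 87.6% to 110%, limma adjusted p 0.975).

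Gabrd, the delta subunit gene of tonic inhibition, had the largest difference of the 7, with a 95% interval that included 0. Its signals were 5.84, 5.72 and 5.68 in wild type and 5.81, 5.95 and 5.94 in knockout. Knockout replicates 2 and 3 were above every wild-type value, and knockout replicate 1 lay below wild-type replicate 1. The means were 5.75 ± 0.08 and 5.90 ± 0.07 (SD, n = 3 each), which puts knockout at 111% of wild type, with a 95% interval of 97.6% to 127%. The unadjusted limma p was 0.0958, the adjusted p 0.874 and the exact two-sided permutation p 0.2. Leaving out single samples moved the difference between 0.12 (without wild-type replicate 3) and 0.20 (without wild-type replicate 1). Dentate granule cells are the main hippocampal source of delta. Their markers were higher in knockout for 10 of 12 genes, with a median difference of 0.11. The mean log2 level of these markers ran from 7.01 to 7.30 in wild type and from 7.16 to 7.35 in knockout, and 11 of 12 lay above the overall median signal in every sample. Their mean deviation was 0.11, -0.17 and -0.13 in wild-type replicates 1 to 3 and 0.05, 0.16 and -0.03 in knockout replicates 1 to 3. Wild-type replicate 1 and knockout replicate 2 were the highest of their genotype for these markers as well as for Gabrd. The other samples were not in the same order. Knockout replicate 3, at 5.94 for Gabrd, was the lowest knockout for the markers, while knockout replicate 1 was the lowest knockout for Gabrd. In wild type, replicate 2 was lowest for the markers and replicate 3 for Gabrd. The part of the granule cell markers in the Gabrd difference was not tested.

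Of the 9 other GABA-A receptor subunit genes measured, 4 had a higher and 5 a lower mean in knockout, and limma called 0 at the adjusted threshold and 0 at an unadjusted p under 0.05. The gamma subunit genes Gabrg1 and Gabrg3 were above the overall median signal in every sample. Gabrg1 read 6.57, 6.75 and 6.59 in wild type and 6.43, 6.42 and 6.65 in knockout, a difference of -0.14 ± 0.10 (standard error). Gabrg3 differed by 0.02 ± 0.08. The other 7 were below that median in every sample. They were Gabra6, known from cerebellar granule cells, the rho subunit genes Gabrr1, Gabrr2 and Gabrr3, known from retina, and Gabre, Gabrp and Gabrq. Their differences ran from -0.12 for Gabrq to 0.35 for Gabrr1, whose interval was -0.12 to 0.81.

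Genes that hold GABA-A receptors at the synapse or carry them there had a higher mean in knockout for 19 of 28. Over all genes this share was 54.9%. At the adjusted threshold 0 of the 28 passed. Nlgn2, the neuroligin of inhibitory synapses, read 8.63, 8.72 and 8.63 in wild type and 8.84, 8.90 and 8.81 in knockout. Its groups did not overlap, and its difference was 0.19 ± 0.07 (standard error), at an unadjusted limma p of 0.0314. Rdx, which encodes radixin, an anchor of alpha5 receptors, read 8.32, 8.16 and 8.13 in wild type and 8.001, 8.07 and 7.96 in knockout. Its groups did not overlap either, at a difference of -0.19 ± 0.08. The list had 5 of 28 genes whose groups did not overlap, beside 10.9% of all genes. At an unadjusted p under 0.05 it had 1 of 28, Nlgn2, beside 5.75% of all genes.

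Genes that make, move and break down GABA had a lower mean in knockout for 5 of 9, with a median difference of -0.04 and 0 past the adjusted or unadjusted threshold in limma. Slc32a1, the vesicular GABA transporter gene, differed by -0.10 ± 0.09 (standard error) and the amino acid transporter gene Slc38a1 by -0.08 ± 0.09. Among the 11 chloride transporter and channel genes, 5 were higher and 6 lower. At the adjusted threshold limma called 0 of them, and 1 of 11 passed an unadjusted p of 0.05, beside 5.75% of all genes. This was Slc12a2, which encodes the chloride importer NKCC1. It read 8.37, 8.26 and 8.34 in wild type and 8.01, 7.97 and 8.26 in knockout, a difference of -0.25 ± 0.10. Knockout replicate 3 was the highest of its group for Slc12a2, as it was for the myelin genes and several other marker lists. The part of these lists was not tested. The chloride channel gene Clcn2 differed by 0.16 ± 0.10.

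Of the 8 genes of GABA-B receptors, the metabotropic GABA receptors, and their partners, 6 had a higher mean in knockout. The receptor subunit gene Gabbr2 differed by 0.10 ± 0.07 (standard error) and the auxiliary subunit gene Kctd8 by -0.18 ± 0.09. Neurosteroids potentiate delta receptors in particular. Of 7 genes for their synthesis or for endozepine, 2 were higher, and Akr1c14 and Hsd3b1, steroid enzyme genes with signals below the overall median, differed by 0.33 ± 0.14 and -0.10 ± 0.12. Of 5 glycine receptor genes 4 were lower. Of these, Glra1 (-0.24 ± 0.10) and Glra4 (-0.20 ± 0.12) also lay below that median. In these lists 0 genes passed over all genes, and at an unadjusted p under 0.05 there was 1, Glra1, beside 5.75% of all genes.

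The gene most similar to each member over the 6 arrays was sought among the other members and the genes of the GABA and glycine lists, 560 relations in all. For Gabra5 it was Iqsec3, a signalling protein gene of inhibitory synapses (Pearson's r 0.93, exact permutation p 0.00278; Spearman's rho 0.94, exact permutation p 0.0167). After Benjamini-Hochberg adjustment these became 0.778 and 0.644, and r was 0.89 without the 2 samples farthest from the median. For Gabrb2 it was Dbi, the endozepine gene, with r of 0.945 and rho of 0.94 (exact permutation p 0.0125 and 0.0167, adjusted 0.826 and 0.644), and r of 0.90 without such samples. For Gabrb1 it was Gabrd, with r of 0.82 and rho of 0.94 (exact permutation p 0.0417 and 0.0167, adjusted 0.826 and 0.644). This relation rested on knockout replicate 2 and wild-type replicate 3, without which r was 0.45. For Gabra3, Gabra4 and Gabrd the most similar genes were the glycine receptor gene Glra3, the steroid enzyme gene Hsd3b1 and the trafficking gene Trak2, with r of 0.83, 0.795 and 0.83 and adjusted exact permutation p of 0.826 each. Their rho was 0.71, 0.89 and 0.71, with adjusted exact permutation p of 0.876, 0.644 and 0.876, and r without the 2 farthest samples was 0.82, 0.87 and 0.88. None of these relations passed the adjustment. With 6 arrays the exact test has too few orderings for a relation to pass it by itself.

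Markers of the cells and regions that could alter these signals differed as follows, with 0 past the adjusted limma threshold. Interneuron markers were lower for 11 of 18 genes (median -0.06; Dlx2 -0.21), CA1 markers higher for 4 of 7 (0.03; Wfs1 -0.25) and CA3 markers higher for 5 of 8 (0.06; Iyd -0.36). Astrocyte markers were lower for 6 of 10 genes (median -0.01; Gjb6 0.17) and microglia markers for 5 of 7 (-0.04; Ctss -0.29). Endothelial and mural markers were lower for 9 of 10 genes (median -0.08; Abcb1a -0.26) and choroid plexus markers for 7 of 8 (-0.16; Ttr -0.43). Thalamus markers were lower for 5 of 9 genes (median -0.0016; Slc17a6 -0.27) and striatum markers higher for 4 of 7 (0.03; Drd1 0.22). General neuron markers were higher for 7 of 10 genes (median 0.06; Slc17a7 0.15). Tspan2, the myelin gene of the smallest p, differed by -0.62, and Plk5, that of the granule cell list, by 0.30. At an unadjusted p under 0.05 there were 12 of 14 myelin genes, 3 of 10 endothelial and mural genes, 2 each of the dentate, CA1 and CA3 lists, and 1 each of the interneuron, choroid plexus and microglia lists, beside 5.75% of all genes.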

How the data were processed

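Hippocampal RNA of 3 wild-type and 3 Trpc4 knockout samples, grouped by the labels, was measured on 1 array each. Per the submitters' processing notes, the deposited log2 signals were computed by RMA in Affymetrix Power Tools. RMA normalizes arrays jointly, so a shift shared by most genes would not show. For versions and the build, nothing is stated in the labels used here. Arrays give no read depth, and their number limits the precision (median standard error of members 0.08, of all genes 0.10). Of 41345 probe sets, 23521 named 1 gene in the platform annotation, which can be old, 1814 named several and 16010 had no name there. Array medians were 4.73 to 4.75, Pearson's r between arrays across probe sets 0.985 to 0.988 (probe sets are not replicates), and 0 pairs were identical.

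For each gene the probe set of the highest mean was fitted in limma 3.58.1 (lmFit, eBayes; R 4.3.3) on genotype alone, adjusted by Benjamini-Hochberg over 22180 genes. Each member had 1 such probe set. Exact permutation tests used scipy 1.17.1. A list's mean deviation is the mean over its genes of a sample's log2 signal minus the gene's mean. Signals of different genes were set only against the overall median and against genes of like or higher signal. They were not read as relative amounts of RNA. The fit was tested on simulated data.

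The members and lists were chosen with earlier results of these data known. Named were all members, all other subunits, the 2 genes of smallest unadjusted p in each other pathway list, 1 in each marker list, Trpc4, and for each member the gene of highest Pearson's r. Gm5108, Slc10a4l and Corin, outside this rule, were added with their values known. The analysis was repeated leaving out each sample, with the replicate number as a block, with array weights, with a mean-variance trend and robust estimation, after quantile normalization or centring on array medians, and with dim probe sets removed, averaged probe sets or all probe sets. Promoter windows are RefSeq's, build GRCm38.p6.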

Additional observations from a re-analysis of the deposited data

How the results depend on the processing

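Of the 8 alternatives that kept all samples, only quantile normalization, median centring and array weights could move the differences of the 7 subunit genes. Under these each of the 7 kept its sign. The others left each difference as it was and so did not test its sign. No subunit gene passed an adjusted or unadjusted p of 0.05 under any alternative. The replicate block changes only the standard errors here, so Gabra2 still differed by 0.02 and Gabrd by 0.16. With it 0 genes passed an adjusted p of 0.05. The block was kept as an alternative, since the labels do not say that a replicate number pairs samples. Deviations of same-numbered samples correlated at 0.07, 0.03 and -0.0038. Wild-type replicates 1 and 2 correlated best with the knockout replicate of the same number, and wild-type replicate 3 with knockout replicate 2. Leaving out single samples gave -0.35 to 0.22 for Gabra2, -0.0374 to 0.112 for Gabra3, -0.0721 to 0.0175 for Gabra4, 0.02 to 0.07 for Gabra5, 0.02 to 0.09 for Gabrb1, -0.05 to -0.0027 for Gabrb2 and 0.12 to 0.20 for Gabrd. The sign turned for Gabra2 without wild-type replicate 2 or knockout replicate 3, for Gabra3 without wild-type replicate 1 or knockout replicate 2, and for Gabra4 without knockout replicate 3. The count of 0 genes at an adjusted p of 0.05 became 1 with trend and robust variance, and was 0 to 1 without single samples (1 without knockout replicate 1). Neither was a subunit gene, and the cause was not tested. With 3 samples a group, changes in Gabra2 smaller than its interval could not be detected.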
